A study of Mus musculus with 8 samples.

Results

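The genes described here are 43 components of the glutathione, thioredoxin and Nrf2 response, taken by name from a table of 21885 named genes. All 43 were measured, and all 43 were among the 12165 genes tested. They fall into 8 role groups: Nrf2 control, glutathione synthesis and recycling, oxidant-inducible enzymes, the thioredoxin system, glutathione peroxidases, peroxiredoxins, glutathione transferases, and superoxide dismutases with catalase. The study measured RNA from mouse skin in a model of atopic dermatitis. Both groups received MC903, a vitamin D analogue that provokes dermatitis when put on mouse skin. In 4 libraries MC903 was the sole treatment, and in the other 4 it was combined with phytic acid, the phosphate store of plant seeds. There was no library of untreated skin, so every difference below is between dermatitic skin with phytic acid and dermatitic skin without it. Strain, age, dose and route are not stated in the labels. Nor do they tie each library to an animal of its own, so p-values measure only the spread between these libraries, which may be technical.

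Cells meet oxidants and electrophiles with a shared set of enzymes. The transcription factor Nrf2, encoded by Nfe2l2, is held at low levels by its adaptor Keap1, which delivers it to a ubiquitin ligase. Oxidants modify Keap1, Nrf2 accumulates, and with small Maf partners it binds antioxidant response elements near genes that make glutathione, reduce peroxides and conjugate electrophiles. Glutathione and thioredoxin are the main thiol reductants, and NADPH keeps both reduced. In skin the system is known for its part in keratinocytes, which face ultraviolet light, chemicals and the oxidants of inflammation.

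Some promoters of these genes carry short motifs known from this response, and they are shown because several of the genes that changed hold them. The core of the antioxidant response element was searched as TGACNNNGC, and the site of the AP-1 factors as TGAGTCA, on both strands. These patterns can overlap, as they do once in Prdx1. RefSeq promoters on GRCm38.p6, running from 250 bases before a gene's start to 50 after it, were found for 37 of the 43 genes. The sequences below run 5′ to 3′ in the direction of the gene and stop before its annotated first transcribed base. Capitals mark the matched letters.
Nfe2l2 upstream sequence, chr2:75704664-75704913, minus strand: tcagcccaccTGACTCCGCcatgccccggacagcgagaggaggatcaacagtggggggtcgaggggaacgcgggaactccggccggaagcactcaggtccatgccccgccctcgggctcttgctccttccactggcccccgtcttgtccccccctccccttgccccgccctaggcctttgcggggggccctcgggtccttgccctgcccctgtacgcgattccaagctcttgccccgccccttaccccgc
Gclm upstream sequence, chr3:122245307-122245556, plus strand: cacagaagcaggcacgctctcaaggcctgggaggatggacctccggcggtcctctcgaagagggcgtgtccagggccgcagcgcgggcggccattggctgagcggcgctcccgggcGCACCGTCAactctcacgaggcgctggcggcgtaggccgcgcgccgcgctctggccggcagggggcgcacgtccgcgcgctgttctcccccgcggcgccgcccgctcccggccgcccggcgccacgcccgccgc
Srxn1 upstream sequence, chr2:152105274-152105515, plus strand: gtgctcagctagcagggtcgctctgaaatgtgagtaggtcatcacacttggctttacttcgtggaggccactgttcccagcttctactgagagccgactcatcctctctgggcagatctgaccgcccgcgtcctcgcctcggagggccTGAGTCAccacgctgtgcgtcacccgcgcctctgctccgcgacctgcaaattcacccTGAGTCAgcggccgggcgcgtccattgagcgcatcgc
Prdx1 upstream sequence, chr4:116685349-116685543, plus strand: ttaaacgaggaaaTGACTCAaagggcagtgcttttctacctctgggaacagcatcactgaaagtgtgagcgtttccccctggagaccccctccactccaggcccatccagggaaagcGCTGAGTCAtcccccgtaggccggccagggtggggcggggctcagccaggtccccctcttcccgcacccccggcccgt
Gstm5 upstream sequence, chr3:107895604-107895820, plus strand: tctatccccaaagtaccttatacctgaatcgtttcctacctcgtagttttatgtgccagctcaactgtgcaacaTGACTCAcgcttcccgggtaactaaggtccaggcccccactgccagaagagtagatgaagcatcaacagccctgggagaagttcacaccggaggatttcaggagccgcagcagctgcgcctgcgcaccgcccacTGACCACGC
Gsta3 upstream sequence, chr1:21240335-21240584, plus strand: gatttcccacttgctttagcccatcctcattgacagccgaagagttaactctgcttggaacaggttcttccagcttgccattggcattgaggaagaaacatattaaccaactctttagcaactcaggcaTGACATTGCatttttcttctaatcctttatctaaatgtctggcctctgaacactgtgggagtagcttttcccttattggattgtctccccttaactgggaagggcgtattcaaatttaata
Sod1 upstream sequence, chr16:90220512-90220753, plus strand: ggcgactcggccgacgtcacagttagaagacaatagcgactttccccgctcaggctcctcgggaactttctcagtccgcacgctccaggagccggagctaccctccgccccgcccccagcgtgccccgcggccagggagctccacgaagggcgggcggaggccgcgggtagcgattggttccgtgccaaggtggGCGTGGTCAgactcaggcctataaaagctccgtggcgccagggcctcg

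The element core was matched in 9 of the 37 genes (24.3%), against 14.0% of all 27025 genes with a promoter window and 17.2% of the 9660 tested genes with one. By window of equal length, 20.5% of the 44 windows of the 37 genes held it, against 12.4% of all 32851 windows. The holders were Nfe2l2, Gclm and Srxn1, which fell with phytic acid, Gsta3, Gstm5, Mgst1 and Sod1, which rose, and Prdx1 and Txnrd1, which were not called. The AP-1 pattern was matched in 5 of 37 genes (13.5%), against 5.95% of all genes. By window, 11.4% of the 44 windows held it, against 5.20% of all windows. The holders of the AP-1 pattern were Srxn1, Gstm5, Prdx1, Mgst2 and Gstp1. Srxn1 held it at 2 places, 102 and 45 bases before the RefSeq start. Its element core lay 29 bases past that start, outside the stretch shown. That stretch ends before the GENCODE start, which for Srxn1 lies upstream of the RefSeq start. The core thus occurred among genes that fell, 3 of the 9 with a window, and among genes that rose, 4 of 9. A match is a description of the letters and not evidence of a bound site. Gsr, Gclc, Gsta4, Hmox1, Prdx6 and Sod3 had no promoter window and were not searched. Of the genes with a match, Mgst1, Txnrd1, Mgst2 and Gstp1 are not shown as sequences.

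Library totals, recovered from the deposited values, were 31676934 to 37639476 reads for MC903 and 38310034 to 42997271 with phytic acid, so every library with phytic acid was deeper than every MC903 library. The genes described rested on 18 reads (Gsta2) to 48921 reads (Txnip) per library, apart from Gpx2, whose reads were not recovered. These reads and totals may count both mates of a pair, so the fragments behind them may be fewer. Skin markers were abundant in all libraries: 7 basal keratinocyte genes summed to 4372 to 7931 FPKM in MC903 and 2613 to 3095 with phytic acid. The lower sum came from Krt14, at a mean of 5275 FPKM in MC903 and 1357 with phytic acid. Krt15 was called higher and the other 5 were not called, so the sum does not stand for the list. FPKM scales the reads of a gene by its length and by the library total, so levels can be set side by side between genes. MC903 replicate 3 stood apart. On the first principal component of all tested genes, which held 63.8% of the variance, it scored -8.41, while the other MC903 libraries scored -42.8 to -33.3 and the phytic acid libraries 24.9 to 39.5. It also held RNA of growing hair follicles: the inner root sheath keratin Krt71 stood at 1373 FPKM there and at no more than 22.3 in any of the other 7 libraries. Results are therefore given with and without it where it matters.

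Of the 43 genes, 21 changed with phytic acid, 10 higher and 11 lower, in limma's test on log2(FPKM + 1) with a Benjamini-Hochberg adjusted p under 0.05 over all tested genes. Among the 12165 tested genes 14.2% were called higher and 11.6% lower, against 23.3% and 25.6% of the genes described. Under median-of-ratios scaling, which divides each library by its median ratio to the gene means, the calls over all tested genes split into 1469 higher and 1828 lower, against 1722 and 1412 here. The 2 groups did not overlap for 10 genes that were higher and 9 that were lower, where 14.3% and 13.0% of all tested genes had no overlap in those directions. At least a 2-fold change on the log2(FPKM + 1) scale was called lower for 5 (Gsta4, Slc7a11, Gsr, Srxn1 and Gpx2) and higher for 3 (Gsta2, Gsta3 and Gstm5), against 2.57% and 3.16% of all tested genes. Of these, Slc7a11 was under 1 FPKM in all phytic acid libraries. It passed the filter on low values only through the MC903 libraries, where it was high. Its place in these counts, in the 11 called lower and in the 9 without overlap is therefore no support for any of them. Gsta2 was under 1 FPKM in MC903 replicates 1 and 4, and Gpx2 in phytic acid replicates 1 and 2. Each passed the filter only with the libraries where it was high, so its place in the counts is likewise no support. The median log2 fold change of the 43 was 0.11, and that of all tested genes was 0.048. Without MC903 replicate 3, 12 were called higher and 12 lower, the 21 all stayed called, and 18 of them lay further from 0. That library lay nearest the phytic acid libraries, so leaving it out moves most changes outward and is no support for the calls. With MC903 replicate 1, 2 or 4 left out, 9 were called higher and 10 or 11 lower.

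**Figure D1:**
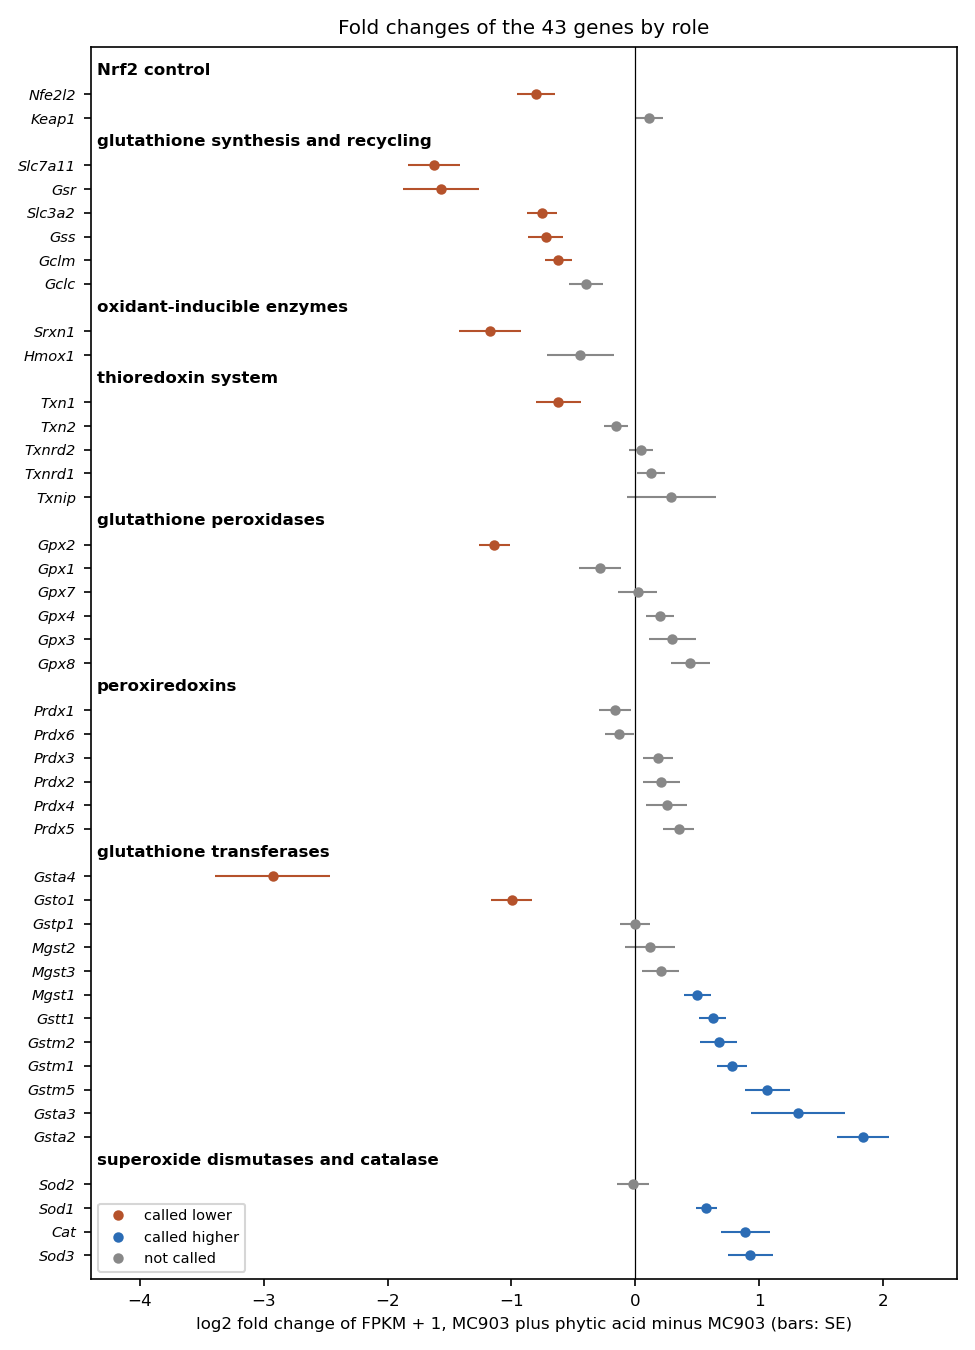
Log2 fold change of FPKM + 1 (horizontal axis, MC903 plus phytic acid minus MC903, bars showing the SE) for each of the 43 genes, grouped by role, coloured by the limma call. The 6 genes of glutathione synthesis and recycling all lie left of 0, while 7 transferases and 3 of the dismutases and catalase lie to the right as called higher.

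Of the 2 genes of Nrf2 control, 1 was called lower and 1 was not called. Nfe2l2, on chromosome 2 (GRCm38 chr2:75675513-75704641, minus strand), measured 59.9, 48.5, 36.6 and 57.2 FPKM in replicates 1 to 4 of MC903, the order kept for all values below. With phytic acid it measured 28.7, 24.6, 27.4 and 31.9 FPKM. Every phytic acid library lay below every MC903 library, and the lowest MC903 library was replicate 3. The means were 50.6 ± 10.5 and 28.2 ± 3.03 FPKM (SD, n = 4 each), a log2 fold change of -0.80 ± 0.16 (SE, limma, Benjamini-Hochberg adjusted p = 0.00599). Keap1, the adaptor that holds Nrf2 down, stood at 6.89, 7.06, 8.16 and 8.22 FPKM in MC903 and at 9.12, 8.83, 6.68 and 8.66 with phytic acid. The groups overlapped, and the log2 fold change of Keap1 was 0.11 ± 0.11 (limma, adjusted p = 0.494). The transcript of Nrf2 itself does not report the amount or activity of the protein.

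In glutathione synthesis and recycling 5 of 6 genes fell, none rose, and all 6 had a negative fold change, with a median log2 fold change of -0.74. Among the 5 is Slc7a11, which passed the filter only through the MC903 libraries, so its call is no support for this count. Slc7a11 is the transport subunit that brings cystine, the limiting precursor of glutathione, into the cell. It stood at 3.47, 3.12, 1.95 and 5.50 FPKM in MC903, and at 0.203, 0.435, 0.520 and 0.484 with phytic acid. Every phytic acid library lay far below every MC903 library. Its log2 fold change was -1.63 ± 0.21 (limma, adjusted p = 0.00105). Because the added 1 damps low values, it was -3.05 with 0.01 added in its place and -3.08 with voom on the recovered reads.

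Slc3a2, the heavy chain that carries Slc7a11 and other amino acid transporters to the membrane, was far more abundant. It stood at 42.5, 36.8, 40.4 and 41.03 FPKM in MC903 and at 18.7, 27.7, 24.9 and 23.4 with phytic acid. The MC903 libraries lay close together and all above the others, with a log2 fold change of -0.75 ± 0.12 (limma, adjusted p = 0.00252). The FPKM of Slc3a2 was 7.46 to 20.7 times that of Slc7a11 in the MC903 libraries and 47.9 to 92.1 times with phytic acid, ranges that did not overlap. Slc7a11, the divisor, was under 1 FPKM in all phytic acid libraries, so this ratio adds no support.

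Glutamate-cysteine ligase makes the first and limiting step of glutathione synthesis from a catalytic subunit, Gclc, and a modifier subunit, Gclm. Gclm stood at 8.88, 8.67, 11.2 and 11.1 FPKM in MC903 and at 5.86, 6.55, 5.96 and 6.02 with phytic acid. Unlike in most genes that fell, MC903 replicate 3 was the highest of its group here. Gclm had a log2 fold change of -0.62 ± 0.11 (limma, adjusted p = 0.00353). Gclc had means of 17.4 ± 3.02 and 12.9 ± 1.70 FPKM, overlapping groups and a log2 fold change of -0.40 ± 0.14 that was not called (limma, adjusted p = 0.0598, and 0.0342 without MC903 replicate 2).

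The enzymes that finish and recycle glutathione were also lower. Gss, which adds the glycine, fell from 4.23 ± 0.945 to 2.13 ± 0.184 FPKM, a log2 fold change of -0.72 ± 0.14 (limma, adjusted p = 0.00652). Gsr, the reductase that regenerates glutathione from its disulfide with NADPH, ranged from 16.1 to 56.5 FPKM in MC903 and from 9.17 to 11.7 with phytic acid. Its MC903 libraries were widely spread, with replicate 3 lowest, but none reached down to the phytic acid libraries. The log2 fold change of Gsr was -1.57 ± 0.31 (limma, adjusted p = 0.00673).

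Of the oxidant-inducible enzymes, 1 of 2 was called lower. Srxn1, sulfiredoxin, repairs overoxidised peroxiredoxins. It stood at 40.9, 39.1, 19.8 and 41.8 FPKM in MC903 and at 11.8, 12.5, 20.7 and 14.6 with phytic acid. The groups overlapped in a single place, where phytic acid replicate 3 lay just above MC903 replicate 3. Srxn1 had a log2 fold change of -1.17 ± 0.25 (limma, adjusted p = 0.00951). Hmox1, which degrades heme, stood at 114, 135, 66.6 and 166 FPKM in MC903 and at 64.3, 74.8, 110 and 92.9 with phytic acid. Its groups overlapped widely, and its log2 fold change of -0.44 ± 0.27 was not called (limma, adjusted p = 0.257). Without MC903 replicate 3 the change of Hmox1 was -0.70 and was called (adjusted p = 0.0259).

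In the thioredoxin system 1 of 5 genes was called, with a median log2 fold change of 0.049. Txn1, the cytosolic thioredoxin, stood at 143, 148, 110 and 172 FPKM in MC903 and at 89.8, 69.5, 97.0 and 116 with phytic acid. The highest phytic acid library, replicate 4, lay above the lowest MC903 library, replicate 3. The log2 fold change of Txn1 was -0.62 ± 0.18 (limma, adjusted p = 0.0319). The call was lost when any of 6 libraries was left out, MC903 replicate 1, 2 or 4 (adjusted p = 0.0759, 0.0769 and 0.0859) or phytic acid replicate 1, 2 or 3 (0.0702, 0.0727 and 0.0508).

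Txnip, the arrestin-like protein that binds thioredoxin and blocks it, was among the most abundant of the 43 and the most uneven of this group. It stood at 212, 246, 129 and 159 FPKM in MC903 and at 113, 328, 364 and 179 with phytic acid. Both the lowest and the highest library were from the phytic acid group, and the log2 fold change of 0.29 ± 0.36 was not called (limma, adjusted p = 0.591). The mitochondrial thioredoxin Txn2 and the reductases Txnrd1 and Txnrd2, cytosolic and mitochondrial, had log2 fold changes of -0.16, 0.13 and 0.049, none of them called. The small change of Txnrd2 had no settled sign, since it was -0.072 under quantile normalization.

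Among the 6 glutathione peroxidases 1 was called. Gpx2, a peroxidase of epithelia, stood at 3.20, 3.78, 3.54 and 4.04 FPKM in MC903 and at 0.976, 0.841, 1.09 and 1.56 with phytic acid. The groups were well apart and replicate 3 was in the middle of its group. Gpx2 was under 1 FPKM in phytic acid replicates 1 and 2 and passed the filter only with the MC903 libraries. Its call is thus no support for this count. The log2 fold change of Gpx2 was -1.14 ± 0.12 (limma, adjusted p = 0.000529), and -1.73 with 0.01 added in place of 1. Gpx3, the secreted peroxidase, had the highest mean of all 43 genes (213 ± 40.4 and 265 ± 57.1 FPKM, not called). Gpx4, which reduces lipid peroxides in membranes, had means of 71.5 ± 5.65 and 82.4 ± 9.77 FPKM and was not called (log2 fold change 0.20). Gpx1, Gpx7 and Gpx8 had log2 fold changes of -0.28, 0.019 and 0.45. Gpx8 had an unadjusted p of 0.0193 and was called when phytic acid replicate 2 was left out (limma, adjusted p = 0.0657 with all libraries and 0.0126 without it), and the sign of Gpx7 turned under median-of-ratios scaling (-0.048).

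The 6 peroxiredoxins reduce peroxides with electrons from thioredoxin or glutathione. By limma 0 of them were called, on FPKM as with voom, 1 (Prdx5) had an unadjusted p under 0.05, and 2 were called higher once MC903 replicate 3 was left out. Prdx1 stood at 136 FPKM on average over the 8 libraries, among the most abundant of the 43. It measured 143, 156, 126 and 151 FPKM in MC903 and 128, 107, 128 and 152 with phytic acid. Its group means were 144 ± 13.1 and 129 ± 18.6 FPKM and its log2 fold change was -0.16 (limma, adjusted p = 0.374). Prdx5, found in mitochondria and peroxisomes, stood at 74.1, 94.5, 92.0 and 68.6 FPKM in MC903 and at 102, 96.1, 114 and 107 with phytic acid. Every phytic acid library was above every MC903 library, but the log2 fold change of 0.35 ± 0.12 missed the threshold (limma, adjusted p = 0.0645, and 0.0392 without MC903 replicate 3). Prdx2 had a log2 fold change of 0.21 (adjusted p = 0.336), and of 0.36 without MC903 replicate 3 (adjusted p = 0.0250). The changes of Prdx3, Prdx4 and Prdx6 were 0.18, 0.25 and -0.13.

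**Figure D2:**
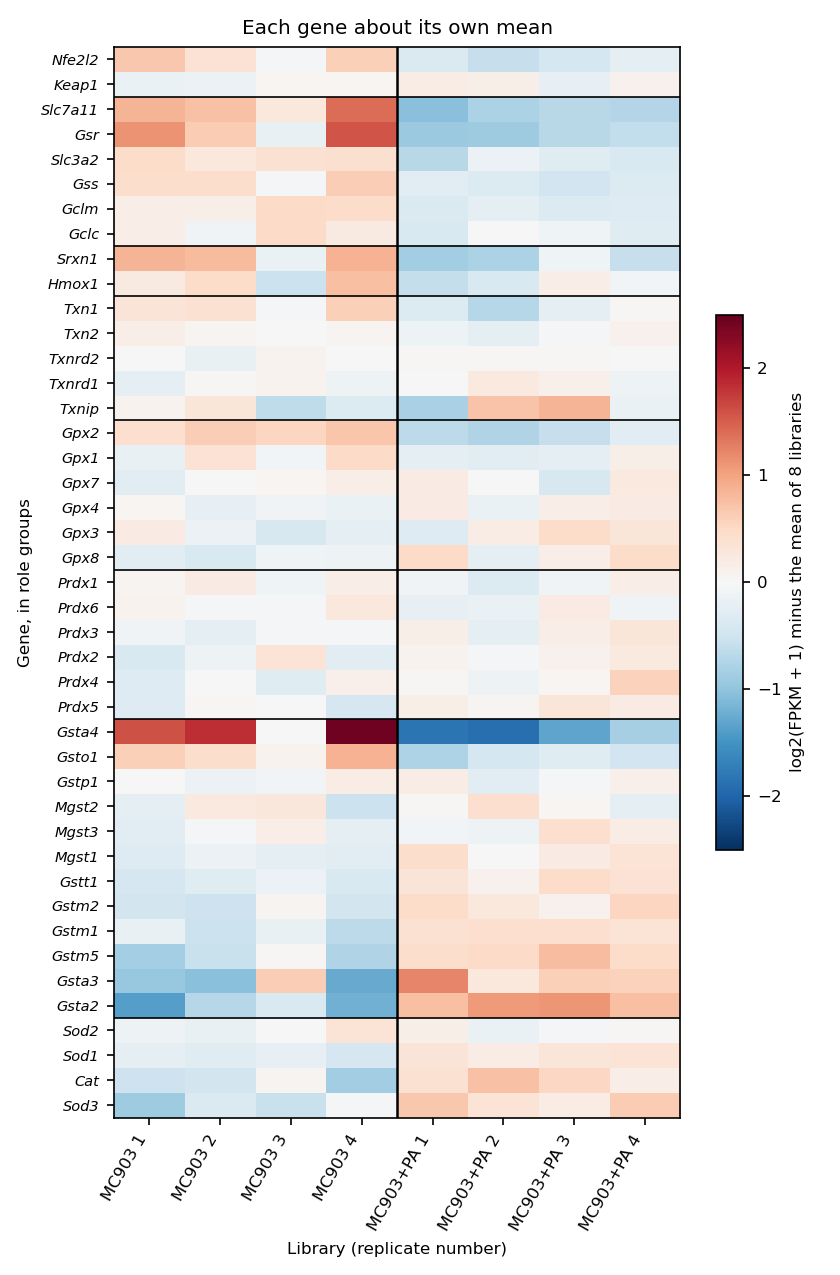
Log2(FPKM + 1) of each of the 43 genes (rows, in role groups) in each library (columns, 4 MC903 and 4 MC903 plus phytic acid), as the difference from the gene's mean over the 8 libraries. MC903 replicate 3 is the library of its group nearest to the phytic acid libraries in 8 of the 11 genes called lower and 8 of the 10 called higher.

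The glutathione transferases, which join glutathione to electrophiles, moved in both directions: 7 of 12 were called higher and 2 lower. Gsta4, an alpha-class enzyme that clears aldehydes of lipid peroxidation, had the largest log2 fold change of the 43 on the log2(FPKM + 1) scale. It stood at 68.1, 81.0, 21.6 and 122 FPKM in MC903 and at 5.47, 5.18, 8.14 and 11.9 with phytic acid. MC903 replicate 3 was far below its group and still above every phytic acid library. The log2 fold change of Gsta4 was -2.93 ± 0.46 (limma, adjusted p = 0.00239), and -3.42 without MC903 replicate 3. Gsto1, the omega-class enzyme, which also reduces dehydroascorbate, fell from 61.0 ± 13.6 to 29.7 ± 4.01 FPKM (log2 fold change -0.996 ± 0.17, limma, adjusted p = 0.00312).

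Gsta2, another alpha-class gene, moved the opposite way. It stood at 0.483, 1.35, 1.96 and 0.682 FPKM in MC903 and at 5.55, 7.07, 7.35 and 5.50 with phytic acid. The groups were far apart, with MC903 replicate 3 highest of its group, and the log2 fold change of Gsta2 was 1.84 ± 0.21 (limma, adjusted p = 0.00065). Gsta4 and Gsta2 lie near each other on chromosome 9 (GRCm38 chr9:78182774-78209349, plus strand, and chr9:78331018-78355788, minus strand), with 121669 bases between them. The FPKM of Gsta4 was 11.0 to 180 times that of Gsta2 in MC903 libraries and 0.732 to 2.17 times with phytic acid. Gsta2, the divisor, was under 1 FPKM in MC903 replicates 1 and 4, so this ratio adds no support. Gsta2 also passed the filter on low values only with the phytic acid libraries, where it was high. Its call is thus no support for the 7 transferases called higher. Gsta3, the other alpha-class gene, rose from 2.72 ± 2.66 to 7.20 ± 2.43 FPKM (log2 fold change 1.32 ± 0.38, limma, adjusted p = 0.0319). Its groups overlapped through MC903 replicate 3, at 6.69 FPKM, and the call was lost on leaving out MC903 replicate 1, 2 or 4, or replicate 1, 3 or 4 of phytic acid (adjusted p of 0.0543 to 0.0851). Gsta2 and Gsta1 are close copies, as are Gstp1 and Gstp2, so reads may have been split between them, and these values are uncertain.

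The mu-class genes Gstm1, Gstm2 and Gstm5, which lie in a cluster on chromosome 3, all rose. Gstm1 stood at 43.7, 34.0, 44.0 and 31.2 FPKM in MC903 and at 65.4, 66.9, 66.8 and 63.5 with phytic acid. The phytic acid libraries were tightly grouped above all MC903 libraries, and the log2 fold change of Gstm1 was 0.78 ± 0.12 (limma, adjusted p = 0.00229). Gstm5 rose from 15.4 ± 4.82 to 32.5 ± 3.87 FPKM (1.07 ± 0.18, adjusted p = 0.00337) and Gstm2 from 15.5 ± 3.41 to 25.1 ± 3.46 FPKM (0.68 ± 0.15, adjusted p = 0.0114). The theta-class Gstt1 and the membrane-bound microsomal Mgst1 also rose, by 0.63 ± 0.11 and 0.50 ± 0.11 on the log2 scale (limma, adjusted p = 0.0039 and 0.0111). The pi-class Gstp1 and the microsomal Mgst2 and Mgst3 were not called, with log2 fold changes of 0.0013, 0.12 and 0.21, and the signs of Gstp1 and Mgst2 turned under some settings.

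The summed level of the 12 transferases overlapped between the groups, at 379 ± 34.9 FPKM in MC903 and 395 ± 25.3 with phytic acid, while its makeup differed. Gsta4 and Gsto1 together made up 36.5%, 36.3%, 19.3% and 46.9% of the sum in MC903 replicates 1 to 4, a mean of 34.7% ± 11.4. With phytic acid they made up 9.49% ± 1.39. Gstm1, Gstm2 and Gstm5 together made up 18.5% ± 5.01 in MC903 and 31.3% ± 1.79 with phytic acid. These shares restate the levels above and were not tested.

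**Figure D3:**
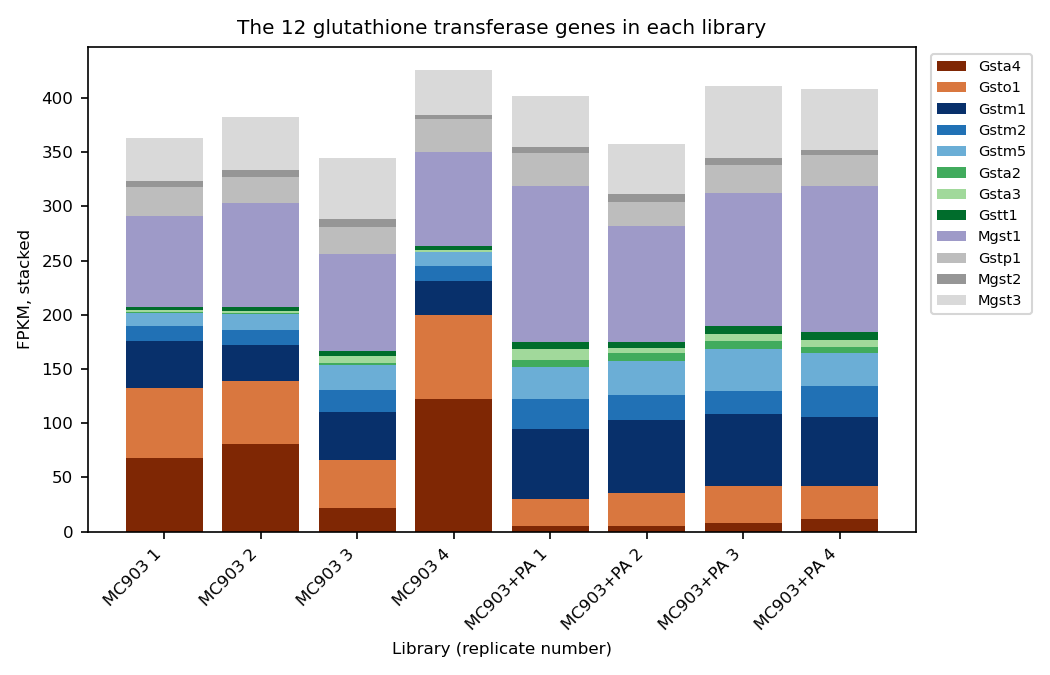
Stacked FPKM of the 12 glutathione transferase genes (vertical axis) in each of the 8 libraries (horizontal axis). The summed heights of the groups overlap (379 ± 34.9 and 395 ± 25.3 FPKM), and the brown segments at the base, Gsta4 and Gsto1, are smaller in every phytic acid library.

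Of the superoxide dismutases and catalase, 3 of 4 rose, with a median log2 fold change of 0.73. Sod1, the copper and zinc enzyme of the cytosol, stood at 13.5, 13.0, 14.0 and 11.9 FPKM in MC903 and at 20.5, 18.5, 20.03 and 20.8 with phytic acid. Both groups were tight and did not overlap, and the log2 fold change of Sod1 was 0.57 ± 0.085 (limma, adjusted p = 0.00183). Sod3, the extracellular enzyme, stood at 2.44, 3.97, 3.30 and 5.13 FPKM in MC903 and at 9.18, 7.10, 6.28 and 8.93 with phytic acid. All phytic acid libraries lay above all MC903 libraries, with a log2 fold change of 0.93 ± 0.18 (limma, adjusted p = 0.0066).

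Cat, the peroxisomal catalase that splits hydrogen peroxide, stood at 54.5, 56.0, 82.1 and 42.0 FPKM in MC903 and at 101, 131, 111 and 87.1 with phytic acid. MC903 replicate 3 came closest to the phytic acid libraries without reaching them. Cat had a log2 fold change of 0.89 ± 0.20 (limma, adjusted p = 0.0112). Sod2, the manganese enzyme of mitochondria, had means of 9.12 ± 1.73 and 8.93 ± 0.891 FPKM and was not called (log2 fold change -0.018, limma, adjusted p = 0.935, with a sign that turned under TPM scaling).

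**Figure D4:**
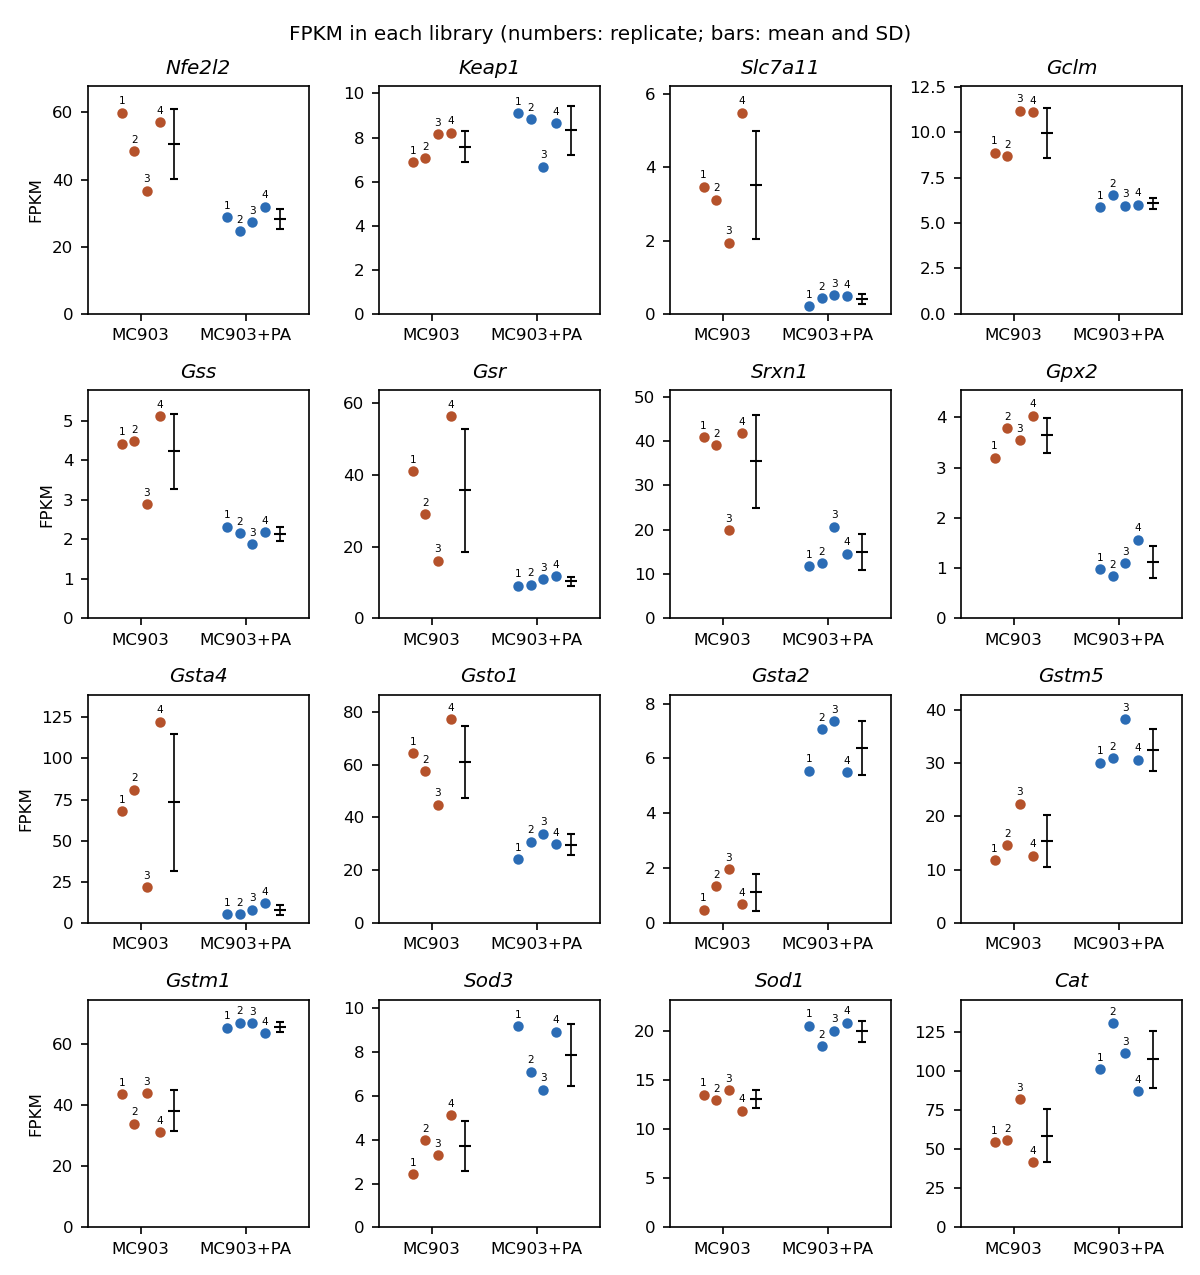
FPKM of 16 of the genes in each library (points, numbered by replicate), with the mean and SD of each group beside them. For Sod1 the 4 phytic acid libraries sit between 18.5 and 20.8 FPKM, all above the MC903 libraries, while for Gsta4 they sit between 5.18 and 11.9 FPKM, all below.

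The spread of the 43 genes between MC903 libraries rested in part on replicate 3. The median coefficient of variation over the genes was 17.5% in MC903 and 14.4% with phytic acid, and 24 of the 43 were more uneven in MC903. Without replicate 3 the MC903 median was 11.9%, so the order of the groups turned.

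Another 105 genes of the pathway were listed, of which 89 were tested: 11 were called higher, 17 lower, and the median log2 fold change was 0.0080. Over all tested genes 14.2% were called higher and 11.6% lower, the shares to set beside these counts and those of each list below. Of 10 tested regulators and partners of Nrf2, such as Cul3, Bach1 and the small Maf genes, none was called in either direction by limma (adjusted p under 0.05), and none had an unadjusted p under 0.05 (the smallest, 0.0566, was that of Nfe2l1). With voom 0 were called, and 1 was called higher when phytic acid replicate 3 was left out. Other Nrf2 target enzymes split evenly, with 3 of 16 higher and 3 lower. Nqo1, the quinone reductase often read as a marker of Nrf2 activity, fell from 18.8 ± 7.15 to 7.47 ± 1.21 FPKM (log2 fold change -1.16 ± 0.26, limma, adjusted p = 0.0114). Aldh3a1, an aldehyde dehydrogenase, rose from 19.7 ± 3.39 to 59.3 ± 13.2 FPKM (1.54 ± 0.17, adjusted p = 0.000588), and Ptgr1, an alkenal reductase, from 30.0 ± 3.06 to 60.5 ± 10.3 FPKM (0.98 ± 0.13, adjusted p = 0.00132).

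Among 9 tested genes of NADPH supply, 2 fell and 1 rose. Mthfd2, the mitochondrial folate enzyme, fell from 12.1 ± 2.49 to 2.47 ± 0.672 FPKM (log2 fold change -1.92 ± 0.18, limma, adjusted p = 0.0003). G6pdx, the first enzyme of the pentose phosphate pathway, fell from 47.4 ± 3.001 to 27.6 ± 2.14 FPKM (-0.76 ± 0.090, adjusted p = 0.000738). Me1, malic enzyme, rose from 48.2 ± 4.78 to 84.7 ± 33.3 FPKM (0.74 ± 0.22, adjusted p = 0.0337). The call of Me1 was lost on leaving out MC903 replicate 1, 2 or 4, or replicate 4 of phytic acid (adjusted p of 0.0572 to 0.0866).

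Of 11 other transferases tested, 1 rose (Gstt3, log2 fold change 0.70) and 2 fell (Gstp3, -0.83, and Gstcd, -0.68). With MC903 replicate 3 left out, 5 rose and 2 fell. Of 15 genes of glutathione breakdown and glutaredoxins, 2 rose and 4 fell. Leaving out 1 library at a time gave 0 to 3 higher, with 0 when MC903 replicate 1 or phytic acid replicate 1 was out, and 3 or 4 lower. Chac1, which degrades glutathione inside the cell, fell by 1.56 on the log2 scale, Glrx, the cytosolic glutaredoxin, by 1.06, and Hagh, a glyoxalase, by 0.66 (limma, adjusted p = 0.00325, 0.00485 and 0.00264). Of 18 other thioredoxin-fold, methionine sulfoxide and sestrin genes, 3 rose and 4 fell, among them Arrdc4 (-1.12), the stress-induced Sesn2 (-0.70) and the selenophosphate synthetase Sephs2 (-0.61). Between 1 and 4 of this list rose, and 3 to 5 fell, with 1 library left out. Of 10 oxidant sources tested, 1 rose and 2 fell: the epithelial oxidase Duox1 went from 5.51 ± 2.30 to 1.05 ± 0.261 FPKM (-1.61 ± 0.23, limma, adjusted p = 0.0016) and its maturation factor Duoxa1 fell by 1.40 on the log2 scale, while Cybb, the phagocyte oxidase subunit, rose by 0.89 (limma, adjusted p = 0.014).

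In whole skin, fewer cells of a type and less RNA per cell cannot be told apart, and the markers of several cell types moved with the same contrast. Wound keratinocyte genes summed to 3584 to 8106 FPKM in MC903 and 772 to 1372 with phytic acid (5 of 7 called lower, none higher). Suprabasal keratinocyte genes summed to 1917 to 4658 and 5235 to 7029 FPKM (5 of 7 higher, 1 lower), and of the 7 basal keratinocyte genes 1 was higher and 1 lower. Of the 7 hair follicle genes 1 was tested: Tchh, trichohyalin, fell, from 437 to 904 FPKM across the MC903 libraries to 17.8 to 25.3 with phytic acid. The other 6 reached 1 FPKM in too few libraries to be tested and were highest in MC903 replicate 3. The list's sum, 439 to 4028 FPKM in MC903 and 19.9 to 27.1 with phytic acid, was thus mostly Tchh outside that library and does not stand for the list. Sebaceous gland genes moved in both directions, with Krt79 and Awat2 higher and Awat1 and Elovl3 lower among the 7, and their sums overlapped, at 895 to 1048 and 854 to 1732 FPKM.

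Below the epidermis, skeletal muscle genes summed to 3082 to 3615 FPKM in MC903 and 6464 to 7899 with phytic acid (6 of 7 higher). Adipocyte genes summed to 211 to 516 and 563 to 995 FPKM (2 of 6 tested higher), fibroblast genes to 435 to 518 and 583 to 1130 FPKM (2 of 7 higher), and Schwann cell and nerve genes to 83.6 to 111 and 132 to 175 FPKM (4 of 7 higher). Most of the adipocyte sum was Cfd, with means of 173 and 532 FPKM, and 4 of the 6 tested were not called. Endothelial genes overlapped, at 48.9 to 64.4 and 57.1 to 62.9 FPKM (1 of 7 higher), as did red cell genes, at 5.87 to 89.3 and 10.6 to 38.9 FPKM (0 of 3 tested called by limma or with an unadjusted p under 0.05).

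Of the immune lists, Langerhans and dendritic cell genes summed to 115 to 285 FPKM in MC903 and 515 to 1075 with phytic acid (6 of 6 tested higher), macrophage and monocyte genes to 458 to 726 and 828 to 1165 FPKM (3 of 7 higher), and T cell genes to 2.58 to 5.40 and 7.81 to 18.3 FPKM (3 of 3 tested higher). Most of the macrophage and monocyte sum was Lyz2, with means of 407 and 752 FPKM, and 4 of the 7 were not called. Neutrophil genes summed to 68.5 to 353 and 9.88 to 83.6 FPKM (3 of 5 tested lower). Most of that sum was S100a8, which also counts among the wound keratinocyte genes, and the other genes called lower were Cxcr2 and Mmp8. Mmp8 was under 1 FPKM in all phytic acid libraries and passed the filter only through the MC903 libraries, where it was high. Its call is therefore no support for this count. Cd207, Cd3g and Cd3d were under 1 FPKM in MC903 replicates 1 and 4 and passed the filter only with the phytic acid libraries. Their calls are likewise no support for the Langerhans and T cell counts. Leaving out 1 library at a time gave 0 to 3 neutrophil genes called lower, 1 to 3 T cell, 1 to 3 macrophage, 3 to 6 muscle, 2 to 5 nerve and 2 to 4 adipocyte genes called higher, and 0 or 1 endothelial. No listed marker with a value was at 0 in every library. The part of any of these cell types in the changes of the 43 genes was not tested.

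**Figure D5:**
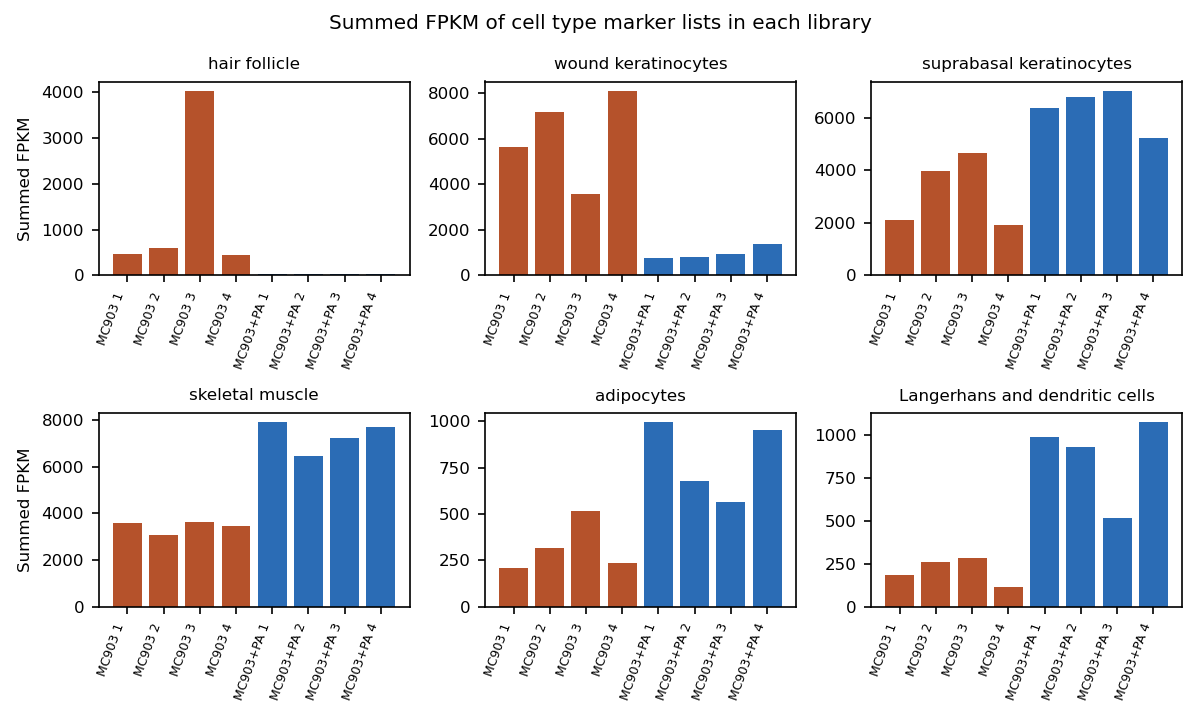
Summed FPKM of 6 lists of cell type markers (vertical axes, starting at 0) in each of the 8 libraries. The hair follicle sum is highest in MC903 replicate 3, at 4028 FPKM, and the skeletal muscle sum is 6464 to 7899 FPKM with phytic acid against 3082 to 3615 in MC903.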

How the data were processed

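RNA of mouse skin was sequenced after TRIzol extraction and SMARTER library preparation, per the labels' protocols. Values are FPKM that the authors computed and deposited, in a single table. Per the submitters' processing notes, the build was mm10 and the tools included HISAT2, TopHat2, cutadapt and DESeq. For versions, annotation, strand setting and the tool behind the FPKM, nothing is given in the sources used here. Levels of antisense genes, and of genes that overlap, are therefore uncertain. FPKM depends on the library total, so other scalings were also run.

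Of 21959 rows, 51 carried no gene name, 0.0160% to 0.0238% of each library's summed FPKM, and were dropped. For 21 repeated names the row of highest mean was kept. Values multiplied by GENCODE exon length came out within 0.05 of whole reads in all libraries for 97.4% of genes, which gave the library totals and the reads used by voom. The size of a read was set by taking the most common low value as both mates of a pair. Whether mates were counted singly is not stated, so fragments may be fewer than the reads given. Coordinates are GENCODE's on GRCm38, counted from 1. Values were analysed as log2(FPKM + 1), which understates changes of low genes. A gene entered the test when 4 or more libraries reached 1 FPKM, and the fit used limma 3.58.1 under R 4.3.3 (eBayes with trend, two-sided, group as the single factor, Benjamini-Hochberg over all tested genes, call under 0.05). The script was tested on simulated data. Fold changes are MC903 plus phytic acid minus MC903.

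The genes and lists were chosen with earlier results of these data known. Values in every library are given for called genes whose groups do not overlap (at most 3 per role by smallest p), for Nfe2l2 and Keap1, and for the 2 most abundant genes of a role with no such gene. From each other list, up to 3 called genes of smallest p are named. Prdx2, Gsr, Gss, Gsto1, Gstm5 and the remaining genes are given by means, ranges or fold changes. Alternatives were other pseudocounts, filters and scalings, library weights, voom, a replicate block and leaving out each library.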

Additional observations from a re-analysis of the deposited data

Results flagged for a closer look

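In 122 sets of 4 libraries (the members and named pathway genes, each group apart), 9 had a library far from the other 3, by a gap large against the whole range. Chance gives about 1 in 20. MC903 replicate 3 was that library for Srxn1 (19.8 FPKM, below its group), Gsta3 (6.69 FPKM, above), Gstm2 (20.6 FPKM, above) and Glrx (42.8 FPKM, below). MC903 replicate 1 was low for Ptgr1 (25.5 FPKM). Among the phytic acid libraries, replicate 4 was high for Gpx1 (6.09 FPKM), replicate 2 was low for Gpx4 (67.9 FPKM), replicate 3 was high for Gstm5 (38.3 FPKM) and replicate 1 was high for Me1 (134 FPKM).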

How the results depend on the processing

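Over 18 alternatives, 19 of the 21 called genes among the 43 stayed called wherever they were tested, the exceptions being Txn1 and Gsta3. Calls were also gained with no library left out. Prdx5 was called higher by limma under TPM scaling (adjusted p = 0.0412), quantile normalization (0.0392) and library weights (0.0109). Gclc was called lower under median-of-ratios scaling (0.0209), quantile normalization (0.0412) and library weights (0.0214). Library weights also gave calls of Gpx8 (0.0118) and Prdx2 (0.0227), both higher. The count over all tested genes called higher, 1722 here, was 1098 with a mean of at least 5 FPKM required, 2865 with library weights, and 1072 to 2418 when 1 library was left out; the count lower, 1412 here, was then 941 to 1561. Other pathway genes called higher, 11 here, numbered 18 with library weights and 5 to 17 when 1 library was left out. Signs turned only among genes that were not called: Txnrd2 was -0.00039 under median-of-ratios scaling, -0.072 under quantile normalization and -0.0037 to 0.084 with 1 library left out. Gpx7 was -0.048 and -0.049 under those scalings and -0.063 to 0.16 with 1 left out. Gstp1 was -0.078 under median-of-ratios scaling and -0.058 to 0.092 with 1 left out, and Mgst2 was -0.035 to 0.23. Sod2 was 0.0088 under TPM scaling, 0.054 with library weights and -0.083 to 0.092 with 1 left out. The cause of these shifts was not tested.

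The replicate numbers did not pair the libraries: correlations of same-numbered deviations were -0.28, -0.10, -0.29 and 0.23, and not every library correlated best with its own number. With a replicate block, 1098 genes were called higher and 948 lower, 7 other pathway genes were higher, and 10 of the 43 were higher and 11 lower. Among the genes named, the block ended the call of Me1 (adjusted p = 0.0538) and no other; with no filter on low values the calls of Me1 (0.0629), Txn1 (0.0558) and Gsta3 (0.0671) ended. Depth limits the lowest genes, such as Gsta2 with 18 reads in 1 library.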
